A study of Fukomys damarensis with 16 samples.

Results

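The ovary-enriched genes of the Damaraland mole-rat, Fukomys damarensis, were described across 16 poly(A) RNA libraries. Membership followed from the deposited levels. A member had 5 RPKM or more in both ovary libraries, and its ovary mean was at least 8 times the mean of brain, of kidney, of liver and of testis (RPKM, the authors' read values divided by gene length and by a number per library whose meaning is not stated). Of 21082 genes in the table, 9758 passed the ovary floor and 58 met the whole rule. A further condition removed genes raised 2-fold or more in the breeding female liver over the other 3 livers and 2-fold or more in the breeding over the non-breeding ovary. It applied to 148 genes of the table and to 0 of the 58. That these genes are high in ovary is therefore how they were chosen and not a finding.

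The Damaraland mole-rat is a burrowing rodent that lives in colonies of breeding animals and non-breeding helpers. Kidney, liver and brain each gave 4 libraries, for females and males of breeding and of non-breeding status; the non-breeding females were 3 years old and the non-breeding males 5. The ovaries came from a breeding female and a non-breeding female of 3 years, and the testes from a breeding male and a non-breeding male of 5 years. Breeders carry no age in the labels, so effects of age cannot be told apart from those of status, nor from those of sex among the non-breeders. The non-breeding male brain is labelled brain and the other 3 frontal brain. No genetic change or treatment of the animals is described in the labels. Nothing in them says which libraries share an animal or whether animals were pooled, so a p-value below measures only the spread between these libraries.

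An ovary is built from oocytes in follicles, from granulosa and theca cells that surround them and make steroid hormones, from the corpus luteum left after ovulation, and from stroma. Genes that stand far above other tissues in an ovary usually belong to the oocyte and its egg coat or to the hormone-making cells, and the latter share much of their program with hormone-making cells of the testis. Which of these the 58 genes are could not be read here. None of the identifiers (0 of 21082) was found among the 33132 genes of the RefSeq table of assembly DMR_v1.0_HiC, so members are given by identifier without symbol. The ovary label could not be checked against marker genes for the same reason, and a member's function, position and sequence are not given.

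The libraries held 15393003 to 27593857 reads on genes, recovered from the RPKM values. In liver the reads on genes came to 1.55 to 1.97 times the number the authors divided by, against 0.665 to 0.945 in the other tissues, so liver levels are high relative to the rest under the deposited scale. Where a later count of these members turns on the liver level, its value with libraries scaled to their reads on genes is given beside it. Single levels are as deposited. The members themselves were chosen on the deposited scale and are the same under both.

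The 58 genes ranged over 3 orders of size in the ovary. Their ovary means ran from 6.31 to 5267 RPKM with a median of 71.7, against a median of 22.4 for the 9758 genes at the floor. Means of 100 RPKM or more were found in 25 members, 20 to under 100 in 18 and under 20 in 15. In the ranking of all genes by ovary mean, 6 members stood among the first 100 and 26 among the first 1000. Together the 58 took 3.65% of the reads on genes in the ovary of the breeder and 3.72% in that of the non-breeder. In testis their share was 0.206% and 0.299%, in kidney 0.0573% to 0.0875%, in brain 0.0518% to 0.0596% and in liver 0.0232% to 0.0363%. The lengths, recovered from the RPKM values as multiples of 3 bases, had a median of 1413 bases (252 to 9774). All genes at the floor had 1356, so members were of ordinary length. In bulk tissue, fewer cells of a type and less RNA per cell cannot be told apart.

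**Figure D1:**
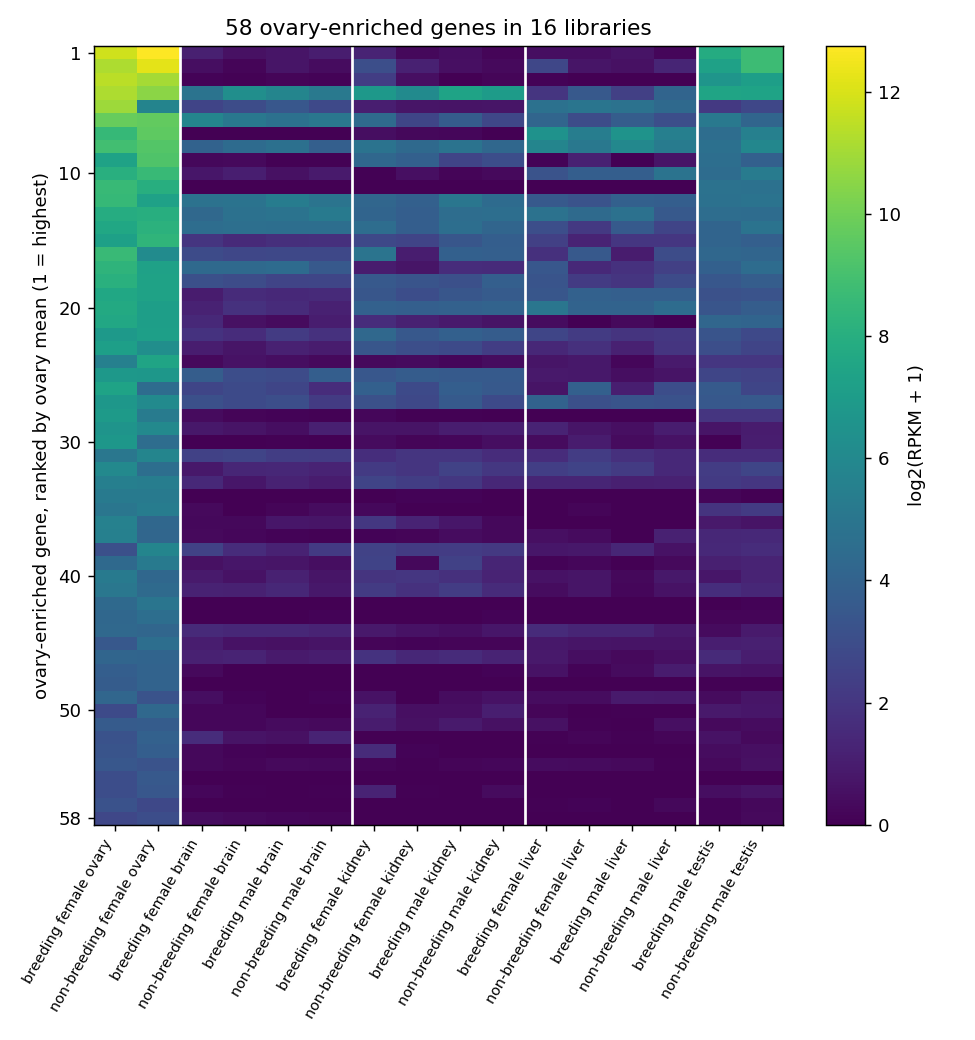
Level of the 58 ovary-enriched genes (rows, ranked by ovary mean) in 16 libraries (columns, grouped by tissue between white lines), as log2(RPKM + 1). The 2 ovary columns are bright by the rule; the first rows are also bright in both testis columns, and the fifth row, DMR_16949, differs most between the ovary columns, at 1883 RPKM (breeding) against 53.7.

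The most abundant member, DMR_17300, ranked 3 among all genes by ovary mean, with 3622 RPKM (breeding) and 6912 (non-breeding). In the testes it had 226 (breeding) and 431 RPKM (non-breeding). In kidney it stood at 1.40 (breeding female), 0.210 (non-breeding female), 0.365 (breeding male) and 0.145 RPKM (non-breeding male), and no brain or liver library passed 1.14. Outside the gonads the gene was thus at 1.40 RPKM or less in every library, and in both gonads the non-breeding library was the higher.

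DMR_03688, at rank 6 in the ovary, had 2289 RPKM (breeding) and 4867 (non-breeding). Its testis levels were 159 and 423 RPKM. In brain it stayed at 0.623 RPKM or less, and in liver it had 5.47 RPKM in the breeding female and at most 1.49 in the other 3. In kidney it had 7.33 RPKM in the breeding female and at most 1.22 in the other 3. As for DMR_17300, the non-breeding library was above the breeding one in ovary and in testis.

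By the measure of RPKM + 1, the member with the widest margin over the next tissue was DMR_08362. It had 108 and 22.3 RPKM in the breeding and non-breeding ovary and at most 0.995 RPKM in any of the other 14 libraries. The narrowest margin by that measure belonged to DMR_20590, with 8.24 and 14.5 RPKM in the ovaries and 2.04 (breeding female), 0.617 (non-breeding female), 0.496 (breeding male) and 1.42 (non-breeding male) in brain. It was listed at 0 in all 4 kidneys. One gene, DMR_16992, had no read outside the ovary; it is named because of that value. It had 173 and 198 reads in the ovaries (7.13 and 10.7 RPKM). A count of 0 allows up to 3 reads per library, which for this gene is 0.0961 to 0.282 RPKM (counting error only).

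In all, 8 members stayed under 0.5 RPKM in each of the 14 libraries outside the ovary, and 11 did so in the 12 brain, kidney and liver libraries. At the edge of the rule, the 3 lowest ratios of ovary mean to the next tissue among members were 8.21, 8.21 and 8.31, and the 3 highest among genes just outside were 7.99, 7.98 and 7.90. Of the members 15 lay at 8 to under 10 times, and 31 genes lay at 6 to under 8 times, so no gap separates the 58 from the genes below them. The lowest ovary value of a member was 5.51 RPKM, and among genes that met the 8-fold condition below the floor the highest value in the lower ovary was 4.78.

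The next question was in which tissue these genes stood second. It was the testis for 28 of the 58, kidney for 14, brain for 8 and liver for 7, with no second tissue for DMR_16992. Among all 9758 genes at the ovary floor the highest of these 4 tissues was the testis for 26%, kidney for 19.8%, brain for 25.5% and liver for 28.8%. Scaled to reads on genes, the testis stood second for 42 members, kidney for 10, brain for 4 and liver for 1, against 41.9%, 25.9%, 25.4% and 6.8% of those genes. The order of tissues depends on the scale, and under the second scale the testis share of members rose with that of all genes. The testis mean of a member was 5.25% of its ovary mean at the median, from 0% to 12.2%, where the rule allows at most an eighth.

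Testis was compared with the mean of brain, kidney and liver in the 14 libraries outside the ovary, which takes no ovary value. The rule did use the means of these 4 tissues, so the members were chosen partly on the values compared. Limma called 16 members higher and 0 lower in testis (adjusted p of 0.05 or below and a log2 difference of 1 or more). Of the 58 members 44 passed the filter of 1 RPKM or more in at least 2 of these libraries. Over all 17182 genes tested, 23.0% were called higher and 20.9% lower. The 44 had a median log2 difference of 0.56, and all genes tested had -0.06. Through the testis alone 4 members passed the filter, and 3 more passed with testis and 1 other library. Apart from DMR_15659, all of these were called higher in testis. Entry through the testis favours a higher value there, so the counts are a description. Without a filter the calls were again 16 and 0, over 57 members.

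DMR_17300 led: testis exceeded the other 3 tissues by 7.67 on the log2 scale (SE 0.27, adjusted p = 9.13e-12 by limma). DMR_03688 followed with 7.02 (SE 0.62, adjusted p = 2.19e-07 by limma). Both were called under all 19 alternatives, with adjusted p up to 6.78e-09 and 3.01e-05. When libraries were scaled by their total of recovered reads, the median of all genes moved from -0.06 to 0.55, the members' median to 1.14 and the calls to 27 higher and 0 lower. Under that scaling 45 members were tested, and of all 17384 genes tested 6335 were called higher and 2130 lower. With voom on the recovered reads 36 members were higher and 0 lower. Of all 17182 genes tested, voom called 7387 higher and 1997 lower.

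**Figure D2:**
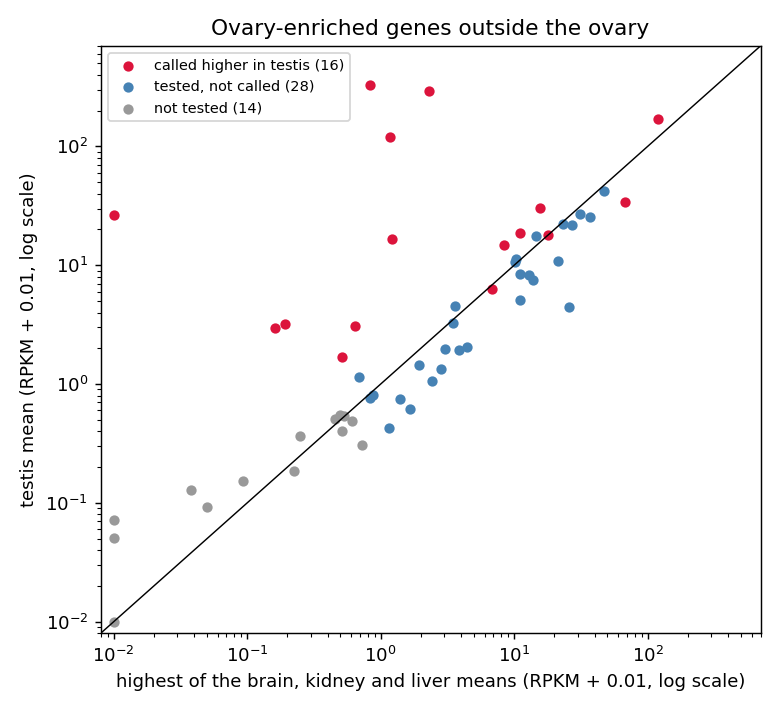
Testis mean (vertical) against the highest of the brain, kidney and liver means (horizontal) for each of the 58 genes, both as RPKM + 0.01 on log axes; the line marks equality. Red marks the 16 genes called higher in testis, blue the 28 tested and not called, grey the 14 not tested. DMR_17300 and DMR_03688 lie at the top, far above the line.

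Among the somatic tissues members were called in both directions in each tissue. In the 12 brain, kidney and liver libraries 37 members passed the filter. The rule used the means of these tissues too. Limma set every tissue against the average of the other 2, allowing for status and sex. The comparisons of a gene are therefore tied, and its higher and lower calls are not separate results. Kidney had 10 members higher and 4 lower, where 13.6% of the 15964 genes tested were higher and 15.6% lower. Brain had 4 higher and 7 lower (background 24.4% and 22.4%), and liver 6 higher and 7 lower (17.1% and 23.6%). The members' median log2 difference was 0.72 in kidney, -0.10 in brain and -0.41 in liver. For all genes tested it was -0.05, -0.03 and -0.11. Without the breeding female kidney the kidney medians were 0.49 and -0.05. Scaled to reads on genes, brain had 8 higher and 4 lower, kidney 15 and 4, and liver 3 and 19, of 38 members tested. Of all 15954 genes tested under that scaling, brain had 5293 higher and 2447 lower, kidney 3416 and 2015, and liver 1285 and 7218. The median over all genes moved to 0.44 in brain, 0.33 in kidney and -0.90 in liver under that scaling. Without the breeding female kidney 8 members were higher in kidney, and 35 passed the filter. Of the members, 5 passed the filter only with their kidney values, 2 only with liver and 2 only with brain. Entry through a tissue favours a higher value there. Such members were 3 of the 10 called higher in kidney, 2 of the 6 in liver and 0 of the 4 in brain. DMR_03620 and DMR_06668, which passed only with liver, were also among the members called lower in kidney and in brain. DMR_11991, which passed only with kidney, was among those called lower in brain and in liver. The counts in both directions are therefore a description.

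The ovary genes read in kidney included DMR_11991, with 11.1 ± 6.13 RPKM there (SD, n = 4), 0.143 ± 0.0964 in brain and 0.485 ± 0.570 in liver. Kidney exceeded the other tissues by 3.11 on the log2 scale (SE 0.24, adjusted p = 4.25e-07 by limma). DMR_21422, at 2340 and 1477 RPKM in the breeding and non-breeding ovary, had 119 ± 41.1 RPKM in kidney and 8.67 ± 6.23 in liver, with 27.8 to 78.4 over the 4 brains. It was higher in kidney by 2.55 (SE 0.37, limma adjusted p = 9.15e-05) and lower in liver, at -3.15 (SE 0.37, adjusted p = 1.06e-05 by limma). For both genes every kidney library stood above every liver library. DMR_11991 entered the fit through its kidney values alone, so its test is a description.

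Outside the gonads DMR_06668 was read mainly in liver. It had 368 and 758 RPKM in the breeding and non-breeding ovary. It had 67.2 ± 28.6 RPKM in liver, was listed at 0 in all 4 brains and reached at most 0.366 in kidney. Liver stood above the other tissues by 5.87 (log2, SE 0.19, adjusted p = 1.85e-10 by limma). Brain and kidney stood at -3.12 (limma adjusted p = 2.08e-08) and -2.75 (limma adjusted p = 1.56e-07). As every tissue was set against the average of the others, the brain and kidney differences restate the liver value. The gene is thus shared by the ovary, the liver and, at 22.3 and 45.7 RPKM, the testes. DMR_03620 had 15.7 ± 8.57 RPKM in liver and at most 1.12 in every brain and kidney library (log2 difference 3.39 in liver, SE 0.20, limma adjusted p = 1.96e-08). DMR_06668 and DMR_03620 both entered the fit only through their liver values, so their tests too are a description. DMR_16949 was lower in kidney, at 0.747 ± 0.234 RPKM against 25.9 ± 4.64 in liver (log2 difference -3.05, SE 0.18, limma adjusted p = 3.68e-08).

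Of the 4 members higher in brain, DMR_01255 had the largest difference, with 17.8 ± 4.69 RPKM there against 1.42 ± 0.716 in kidney and 4.71 ± 3.77 in liver (2.43 on the log2 scale, SE 0.33, adjusted p = 2.8e-05 by limma). DMR_00589 had 36.7 ± 12.7 RPKM in brain, 10.8 ± 7.01 in kidney and 10.9 ± 4.68 in liver (1.75, SE 0.22, limma adjusted p = 1.71e-05). DMR_05788 was lower in brain, at 1.76 ± 0.565 RPKM against 14.5 ± 0.874 in kidney and 21.2 ± 7.65 in liver (-2.74, SE 0.20, limma adjusted p = 1.03e-07). DMR_13237 was lower in liver, at 0.649 ± 0.191 RPKM against 11.1 ± 0.840 in kidney and 9.75 ± 3.43 in brain (-2.77, SE 0.19, limma adjusted p = 8.23e-08). Each of the 9 members named for these 3 tissues kept its calls under all 17 alternatives.

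The breeding and the non-breeding ovary were then compared, which asks whether genes that mark the ovary also mark its reproductive state. Ratios are of RPKM + 1, with 1 library on each side, so no ratio has a replicate check. Members differed to both sides. In the breeding ovary 9 of the 58 were 2-fold or more higher and 8 were 2-fold or more lower, and 41 lay within 2-fold. Among all 9758 genes at the floor 2.96% were that much higher and 1.66% lower, 4.62% in all, and 29.3% of the members. The shares are not comparable as evidence: members were chosen on the mean of these same 2 ovary values, so a gene very high in 1 ovary could qualify through it alone, while the other genes were not chosen so. Of the 17 members 2-fold or more apart, 8 met the 8-fold condition by the lower ovary library alone and 9 did not, DMR_16949, DMR_18162 and DMR_12965 among the latter. The median log2 ratio of the members was 0.05 and that of all genes at the floor -0.02. The middle 50% of members ran from -0.53 to 0.67 and that of all genes from -0.24 to 0.23.

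By level of expression the counts were as follows, with the same limit from how members were chosen. At 100 RPKM or more in the ovary 8 of 25 members were 2-fold or more apart, against 8.74% of 881 genes at that level. At 20 to under 100 RPKM it was 7 of 18 against 4.97% of 4468, and under 20 RPKM 2 of 15 against 3.45% of 4409. Genes enriched in testis by the mirrored rule, 814 in number, were 2-fold or more apart between the 2 testes in 79 cases (9.71%), where 2.35% of the 10617 genes at 5 RPKM or more in both testes were. That rule too uses the mean of the values compared, and the shares in ovary and testis were not tested against each other.

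**Figure D3:**
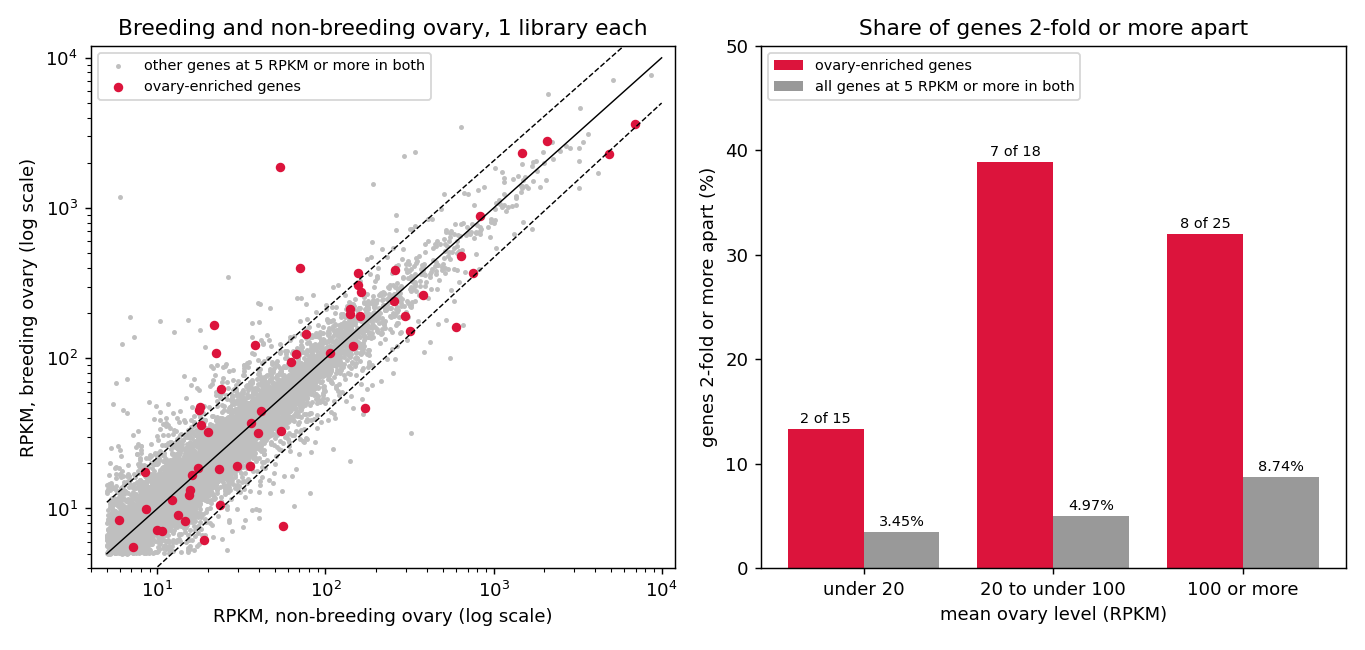
Left, RPKM in the breeding against the non-breeding ovary on log axes for the 58 genes (red) and the other genes at 5 RPKM or more in both (grey); the solid line marks equality and the dashed lines a 2-fold ratio of RPKM + 1. Right, share of genes 2-fold or more apart by mean ovary level, with 2 of 15, 7 of 18 and 8 of 25 members against 3.45%, 4.97% and 8.74% of all genes at the floor.

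DMR_16949 had the highest ratio. The breeding ovary had 1883 RPKM (123444 reads) against 53.7 (2679 reads), a ratio of 35.1 without the added 1 (95% counting interval 33.7 to 36.4, exact binomial). It alone took 0.530% of that ovary's reads on genes, against 0.0152% in the other. Its other levels did not follow status: the livers had 26.1 (breeding female), 30.6 (non-breeding female), 27.3 (breeding male) and 19.5 RPKM (non-breeding male), and the testes 3.35 (breeding) and 5.55. The breeding liver and non-breeding liver values overlapped.

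DMR_18162 came next, with 167 RPKM (7120 reads) against 21.6 (700 reads), a ratio of 7.74 (7.16 to 8.38). In testis too the breeding library was higher, at 11.4 against 5.44 RPKM. Among the genes lower in the breeding ovary, DMR_12965 had 7.70 RPKM (63 reads) against 55.6 (346 reads), a ratio of 0.139 (0.104 to 0.182). Its recovered length is 270 bases, so these levels rest on few reads. DMR_11991 had 162 RPKM (4076 reads) against 600.1 (11500 reads), a ratio of 0.270 (0.260 to 0.280). These intervals cover counting error only and say nothing of the spread between animals. The breeding ovary level of DMR_12965 was less than 2 times its highest levels elsewhere, which were 4.66 RPKM in the breeding female kidney and 4.80 in the breeding female brain.

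The members were also compared between the breeding and the non-breeding testis, with 1 library on each side. Of 38 members at 1 RPKM or more in both testes, 0 were 2-fold or more higher and 2 were lower in the breeding library (0.44% and 2.4% of all 14550 such genes). The 2 were DMR_03688 (159 against 423 RPKM) and DMR_04799 (24.98 against 59.5), named because the count is small. In the ovary DMR_04799 had 480 against 638 RPKM. Across the 38 members the log2 ratios of the ovaries and of the testes had a Pearson r of 0.12, a description over genes that are not independent. Without the members over 4-fold apart in the ovary r was 0.14 (n = 34).

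Outside the gonads breeding status was compared over the 12 kidney, liver and brain libraries, allowing for tissue and sex. Limma called 0 of the 37 members tested, and 7 had an unadjusted p under 0.05, against 13.5% of the 15964 genes tested. Calls were rare among all genes as well, with 0.0188% higher and 0.00626% lower in breeding libraries, and voom called 0 members. The lowest adjusted p of a member was 0.203, for DMR_00589 (log2 difference 0.84, SE 0.21, limma).

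Within single tissues a few members separated by status with no overlap, as a description with no test. In liver, 4 of 37 members with 10 or more reads in the highest library were 2-fold or more lower in both breeding than in both non-breeding libraries, against 0.629% of 14303 genes, and 1 was 2-fold or more higher, against 1.33%. Scaled to reads on genes the same 4 were lower (0.65% of genes) and 0 were higher (1.24%). They are named because they are few. DMR_18162 stood at 0.602 and 1.12 RPKM in the breeding female and male liver and at 14.1 and 7.17 in the non-breeding ones. DMR_09405 stood at 2.35 and 0.940 RPKM against 10.9 and 6.74. Both of these were among the 9 genes higher in the breeding ovary, where DMR_09405 had 399 RPKM against 70.1, so their order in liver was the opposite of that in ovary.

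DMR_21422 stood at 2.95 and 4.39 RPKM in the breeding livers against 10.9 and 16.5 in the non-breeding ones, and had 2340 against 1477 in the ovaries. DMR_11991 was near 0 in liver, at 0.0784 RPKM and 0 against 1.23 and 0.635. The gene higher in the breeding livers was DMR_06668, at 90.5 and 93.5 RPKM against 41.3 and 43.7, while it was lower in the breeding ovary and testis. Of these 5 genes 4 thus had opposite orders in liver and ovary, DMR_11991 being the exception. In kidney 2 of 42 members were higher in both breeding libraries by 2-fold or more (background 1.17%) and 0 lower (0.371%). They were DMR_00589, at 20.2 and 12.2 RPKM against 5.30 and 5.61, and DMR_04439, at 5.01 and 4.47 against 0.195 and 1.52. In brain 0 of 37 members separated in either direction (0.385% and 0.173%).

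Males and females of the 3 tissues were compared in the same fit. Limma called 0 members, where 0.332% of genes were called higher and 0.157% lower in males, and 2 of 37 members had an unadjusted p under 0.05 against 19.4% of all genes; voom also called 0. The lowest adjusted p, 0.067, belonged to DMR_16981 (log2 difference 0.48, SE 0.11, limma; 0.0253 to 0.183 over 18 alternatives), named after its value was seen. It was higher in the male library in 6 of 6 pairs matched for tissue and status, for example at 31.3 against 17.5 RPKM in the breeding kidneys. It passed the threshold without the breeding female liver, and also when the 4 combinations of status and sex were a random block (adjusted p = 0.0253 by limma). Calls over all genes were also more common in those 2 settings. Without that liver 323 of 15869 genes were higher and 426 lower in males. With the random block it was 426 and 339 of 15964, against 53 and 25 in the main fit.

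Several members stood high in the breeding female kidney. This was noticed in the data and is given without a test. Of 42 members with 10 or more reads in the highest kidney, 21 had their highest kidney value in that library, where 36.8% of 15108 genes had, and 7 were 2-fold or more above each of the other 3 kidneys, against 2.18% of genes. Scaled to reads on genes it was 19 and 6 members, against 30.4% and 1.62%. With 1 or more reads in the highest kidney as the condition it was 25 and 9 of 52 members, against 35.8% and 4.58% of 18275 genes. With 10 or more reads, 0 members stood 2-fold above the rest in any of the other 3 kidneys. The breeding female liver was the highest liver for 17 of 37 members (26.7% of 14303 genes), and 2-fold above the others for 2 (7.63%). Scaled to reads on genes these were 19 members against 47.0% of genes and 4 against 9.72%, close to the background. DMR_17802, at rank 16 in the ovary with 2794 and 2092 RPKM, stood at 4.03 RPKM (131 reads) in the breeding female kidney and at 0.445, 0.0292 and 0.128 in the others. DMR_03688 stood at 7.33 RPKM (130 reads) there and at 1.22, 0.428 and 0.234.

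The level in the breeding female kidney as a share of that in the breeding ovary ran from 0% to 60.5% over the members, with a median of 3.89%. Members with levels of their own in every kidney, such as DMR_21422, are included. Whether ovary RNA is present in the kidney library was not tested. The summed level of the 58 genes was 422 RPKM in the breeding female kidney, 255 in the non-breeding female, 438 in the breeding male and 360 in the non-breeding male. DMR_21422 alone gave 110, 68.0, 167 and 129 RPKM of these sums, in the same order, so they say little of the low genes.

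**Figure D4:**
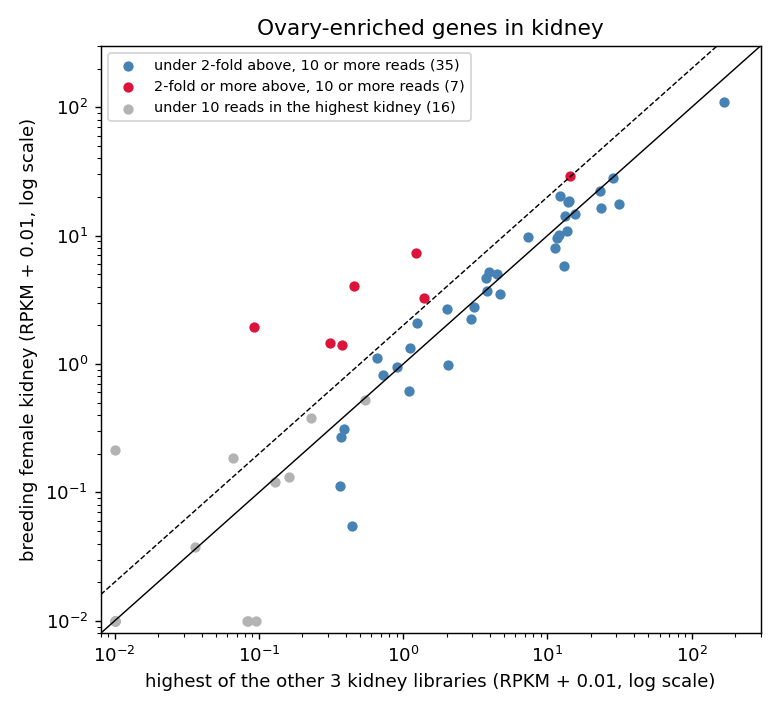
Level in the breeding female kidney (vertical) against the highest of the other 3 kidney libraries (horizontal) for each of the 58 genes, as RPKM + 0.01 on log axes; the solid line marks equality and the dashed line 2-fold. Red marks the 7 genes 2-fold or more above the others with 10 or more reads, and grey the 16 genes with fewer reads, several of them on top of each other at 0.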

How the data were processed

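RNA was extracted with TRIzol, selected by poly(A) and copied from random hexamers, and the libraries were read from both ends, per the labels' protocols. The authors deposited RPKM values for 21082 genes in 16 libraries. The submitters' processing notes name TopHat 1.3.1. Counting tool, build and annotation: not given in the sources used here. Whole reads were recovered by seeking a length (in multiples of 3 bases) per gene and a divisor per library. A solution was found for 21082 genes, and 100% of non-zero values came out whole (tolerance 1e-06 reads, or 1e-11 relative).

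Tests used limma 3.58.1 (R 4.3.3) on log2(RPKM + 1), a scale that understates changes of low genes (eBayes with trend, Benjamini-Hochberg adjustment over all genes tested, threshold 0.05). A gene entered a fit if 2 of its libraries reached 1 RPKM. The fits had 10 (14 libraries) and 7 (12 libraries) residual degrees of freedom. Recovery and fits were tested on simulated data. The simulated lengths were also multiples of 3 bases, so the test could not detect a different unit. Absolute lengths and divisors rest on that unit. Identifiers are printed for the extremes of ovary level, of status ratio and of margin, and for the 2 largest calls per direction; others named were chosen after their values were seen. The members and lists were chosen with earlier results of these data known.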

Additional observations from a re-analysis of the deposited data

Results flagged for a closer look

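Single libraries were compared with the other 3 of their tissue for the genes named in the report and for the sum of the 58. In 5 of 49 sets of 4 libraries the highest or lowest value lay far from the rest by Dixon's ratio of gap to range; about 1 in 20 sets does so by chance. In kidney, 4 of the 5 were the breeding female: DMR_03688 at 7.33 RPKM, DMR_17802 at 4.03, DMR_13678 at 1.94 and DMR_16949 at 1.10. DMR_13678 and DMR_17802 were singled out after their values were seen. In brain, DMR_01255 was low in the non-breeding male, at 10.8 RPKM; that library is labelled brain and the others frontal brain, and the part of the region sampled in this value was not tested.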

How the results depend on the processing

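The number of ovary-enriched genes was 89 with a floor of 1 RPKM, 175 at 4-fold and 26 at 16-fold. Scaling to reads on genes gave 27 members higher in testis, 8 higher and 4 lower in brain, and 3 higher and 19 lower in liver. Calls over all genes under that scaling are given with those comparisons above. Voom gave 36 higher in testis, 14 higher in brain, 21 higher in kidney, and 3 higher and 26 lower in liver. Over all genes voom called 7387 of 17182 higher in testis. Of 15964 genes it called 6155 higher in brain, 4384 higher in kidney, and 1594 higher and 8532 lower in liver. Quantile normalization gave 2 higher and 11 lower in brain, against 3640 and 4057 of 15964 genes. A pseudocount of 0.1 gave 17 higher and 7 lower in kidney and 13 lower in liver. The all-gene counts there were 2680, 2986 and 4586 of 15964. The cause of these moves was not tested. Leaving out each library in turn gave 11 to 16 higher in testis (11 without the non-breeding testis, 12 without the breeding one), 3 to 5 higher and 7 to 8 lower in brain, 8 to 11 and 4 to 5 in kidney, and 6 to 6 and 5 to 9 in liver. Between males and females 0 to 1 members were called higher, and 1 when the combinations of status and sex were a random block (estimated correlation -0.0981). With that block 426 of all 15964 genes were called higher in males. The counts of 9 and 8 members apart between the ovaries stayed within 1.5 times under the 4 alternatives for each. No paired analysis was possible because the labels give no replicate numbers and do not say which libraries share an animal; the random block assumes that libraries of 1 status and sex belong together. With 1 ovary library per status, the ratios between the ovaries have no replicate check at any depth.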

Other observations

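Some members carry identifiers that lie next to each other in the authors' numbering: 2 pairs are consecutive and 1 pair is 2 apart. What the numbering follows was not examined. DMR_13678 and DMR_13679, named after their values were seen, had similar levels throughout. They stood at 9.05 and 7.20 RPKM in the breeding ovary, while the non-breeding ovary had 13.2 and 9.92 and the breeding female kidney 1.94 and 1.44. In the other kidneys they reached at most 0.0821 and 0.299 RPKM, and both were listed at 0 in all 4 livers. Whether the 2 share reads was not tested.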
